A study of Mus musculus with 6 samples.

Results

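The mouse T cell receptor beta (TCR beta) locus was read through the 53 rows of the deposited table of 49585 genes whose symbol starts with Trbv, Trbd, Trbj or Trbc. They comprise 35 variable (V) rows, of which 22 are annotated as genes and 13 as pseudogenes, 2 diversity (D) segments, 14 joining (J) segments and 2 constant (C) genes. All lie on chromosome 6 between 40891229 and 41558452 (GRCm38), a stretch of 667 kb. The RNA came from regulatory T cells (Tregs), the CD4 T cells that express Foxp3 and restrain other lymphocytes, of C57BL/6 mice aged 7 weeks. Cells without B220 and with CD4 and YFP were sorted from spleen, with CD25 as a further sort marker in the design text, and were stimulated for 24 h with plate-bound antibodies to CD3 and CD28. The 2 groups had 3 libraries each, wild type (WT) and Bach2-cKO, by its name a conditional knockout of the transcriptional repressor BACH2. All 6 libraries share the strain, the sort and the stimulation. The Cre line, the cells in which Bach2 was deleted and the origin of the YFP were not given in the sources used here, nor whether each library came from a separate mouse. The p-values therefore cover only how these 6 samples spread, and that spread may be technical.

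A beta chain gene is made during T cell development by joining 1 D to 1 J segment and then 1 V segment to that DJ unit. The joined exon is spliced to a constant gene, Trbc1 after a J segment of cluster 1 or Trbc2 after one of cluster 2, and the chain pairs with an alpha chain and the CD3 proteins at the cell surface. Each T cell uses mainly 1 joined beta gene, so the mix of joined V and J RNA in a population follows the mix of its receptors. Tregs as a rule carry a broad mix. The FPKM of a row can also hold RNA of segments that are not joined and depends on the annotated length. Shares of FPKM are therefore not fractions of receptors or cells. In bulk RNA, fewer T cells and less beta chain RNA per T cell cannot be told apart.

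The locus is laid out as most Trbv rows, then Trbd1, the J segments of cluster 1 and Trbc1, then Trbd2, the J segments of cluster 2 and Trbc2, with Trbv31 last and on the opposite strand. The D segments are shown because they are so short that single reads weigh heavily in their FPKM (fragments divided by the gene's length and by the reads of the library). The J segments shown are the highest of each cluster (Trbj1-5 and Trbj2-7), the 2 that fell most (Trbj2-2 and Trbj2-4) and Trbj2-6, annotated as a pseudogene. All are given 5′ to 3′ on the coding strand, from the GENCODE M21 transcripts (GRCm38).

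Trbd1: gggacagggggc
Trbd2: gggactgggggggc
Trbj1-5: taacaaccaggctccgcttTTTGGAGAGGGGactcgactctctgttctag
Trbj2-2: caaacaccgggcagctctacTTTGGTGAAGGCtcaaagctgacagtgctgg
Trbj2-4: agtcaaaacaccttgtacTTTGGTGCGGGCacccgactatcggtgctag
Trbj2-6: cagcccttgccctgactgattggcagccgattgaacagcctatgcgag
Trbj2-7: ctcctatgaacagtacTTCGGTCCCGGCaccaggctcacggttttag

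Trbd1 is at chr6:41533201-41533212, Trbd2 at chr6:41542163-41542176, Trbj1-5 at chr6:41535084-41535133, Trbj2-2 at chr6:41542957-41543007, Trbj2-4 at chr6:41543362-41543410, Trbj2-6 at chr6:41543598-41543645 and Trbj2-7 at chr6:41543810-41543856. Capitals mark TTTGG or TTCGG followed by 4 bases and GGN, which codes the phenylalanine-glycine motif by which the end of the joined region is recognised. On the coding strand, 11 of the 14 J segments held these letters, and Trbj1-6, Trbj1-7 and Trbj2-6 did not. They occur in the first 50 bases of 0.61% of 141672 annotated transcripts.

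The V segments end in the conserved cysteine that opens the third hypervariable loop. The last 45 bases are shown for the Trbv13 family, which holds the leading segment. They are also shown for the segments whose share of the V RNA did not overlap between the groups (Trbv2, Trbv16, Trbv29 and Trbv13-1). These were 4 of the 17 segments with a mean share of at least 1%, where 35.6% of all genes tested did not overlap in FPKM. Capitals mark TGTGC, the cysteine codon and the 2 bases after it.

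Trbv2: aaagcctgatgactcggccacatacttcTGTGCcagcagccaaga
Trbv13-1: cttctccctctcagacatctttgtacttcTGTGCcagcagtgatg
Trbv13-2: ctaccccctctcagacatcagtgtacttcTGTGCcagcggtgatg
Trbv13-3: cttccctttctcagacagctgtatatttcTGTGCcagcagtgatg
Trbv16: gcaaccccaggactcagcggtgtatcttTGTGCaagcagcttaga
Trbv29: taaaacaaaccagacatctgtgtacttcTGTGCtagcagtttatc

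These stretches lie at chr6:41047951-41047995, chr6:41116424-41116468, chr6:41121788-41121832, chr6:41130541-41130585, chr6:41152186-41152230 and chr6:41271837-41271881, in the order shown. TGTGC stood in the last 45 bases of 19 of the 22 V genes and 7 of the 13 V pseudogenes, and of 5.02% of all annotated transcripts of 50 bases or more. The letters were matched in any reading frame, and a cysteine codon can be followed by other bases. The counts are therefore of letters and not of conserved cysteines. Over the 231 pairs of V genes the coding parts were 51.9% identical in the median, and 4 pairs were above 80%: Trbv13-2 with Trbv13-3 (90.6%), Trbv12-1 with Trbv12-2 (88.2%), Trbv13-1 with Trbv13-2 (87.9%) and Trbv13-1 with Trbv13-3 (85.3%). Reads of such pairs can be split between them in counting, and values of single Trbv12 and Trbv13 members are uncertain to that degree.

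The 2 constant genes are nearly copies. Their coding parts are 518 bases each and 95.6% identical, with 23 mismatches, and the first 259 coding bases are the same in both. Coding bases 240 to 518 are shown with the mismatches in capitals, spliced from chr6:41538457-41539662 for Trbc1 and chr6:41546969-41548178 for Trbc2.

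Trbc1: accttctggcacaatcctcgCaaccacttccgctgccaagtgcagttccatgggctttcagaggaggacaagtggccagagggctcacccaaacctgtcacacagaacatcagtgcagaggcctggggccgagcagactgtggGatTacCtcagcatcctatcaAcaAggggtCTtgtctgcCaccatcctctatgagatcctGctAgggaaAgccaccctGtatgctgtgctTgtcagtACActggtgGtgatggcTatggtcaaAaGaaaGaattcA
Trbc2: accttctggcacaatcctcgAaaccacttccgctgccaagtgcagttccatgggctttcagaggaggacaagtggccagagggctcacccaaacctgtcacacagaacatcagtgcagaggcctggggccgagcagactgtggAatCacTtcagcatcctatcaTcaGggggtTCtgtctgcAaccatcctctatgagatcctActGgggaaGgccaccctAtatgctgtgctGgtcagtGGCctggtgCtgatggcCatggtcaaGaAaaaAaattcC

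Reads that lie wholly in the shared stretch cannot be assigned to Trbc1 or Trbc2 by sequence, and how the authors' counting treated them was not given in the sources used here. Their sum is free of that doubt only if such reads were kept.

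The libraries held 27697735 to 43884431 reads, recovered from the steps of the FPKM values, of which 29914 to 44232 in the WT and 18220 to 18868 in the Bach2-cKO libraries fell on Trb rows. Bach2 itself was not called (112, 111 and 99.4 FPKM in WT, 88.9, 105 and 121 in Bach2-cKO), and since the deleted part is not given this value does not check the labels, so Bach2-cKO below means the libraries labelled so. In the comparison described below, 7.02% of all genes tested were called higher in Bach2-cKO and 8.31% lower, the background for the marker counts here. Foxp3, the Treg factor, was at 104 to 153 FPKM in all 6 libraries. The 5 Treg markers summed to 1139.8 to 1436.4 FPKM in WT and 1479.8 to 1718.0 in Bach2-cKO, with 1 called, Il2ra, which rose. Il2ra (means of 256 and 482 FPKM) and Ctla4 (513 and 652) carried the higher sum, while Ikzf2 (264 and 197) and Tnfrsf18 (135 and 127) had lower means in Bach2-cKO, and the median log2 fold change of the 5 was 0.07. The 6 alpha beta T cell markers summed to 1756.8 to 1898.0 and 1301.5 to 1565.3 FPKM, with 4 called, all lower. B cell genes were present in every library despite the sort for cells without B220. The summed FPKM of 7 B cell markers was 979 to 1377.3 in WT and 1443.0 to 1857.7 in Bach2-cKO, with 4 of the 7 past the threshold, all higher. The 2 CD8 T cell genes Cd8a and Cd8b1 were also higher (sum 40.2 to 44.2 and 53.8 to 99.3 FPKM). Of the markers of gamma delta T cells, whose receptor has no beta chain, Trdc and Sox13 summed to 1.77 to 4.45 and 5.60 to 12.7 FPKM, and 1 of the 2, Sox13, was called higher. The 3 gamma constant genes, Tcrg-C1, Tcrg-C2 and Tcrg-C4, summed to 8.55 to 18.6 and 26.4 to 51.6 FPKM, and Tcrg-C4 was called higher. Of 4 natural killer and natural killer T cell markers, which summed to 1.51 to 1.90 and 2.69 to 4.14 FPKM, only Zbtb16 could be tested and it was not called. The 5 myeloid markers summed to 2.37 to 3.84 and 2.57 to 7.57 FPKM. The part of these cells in the results was not tested. The B cell score used below separates the groups completely, so the fit with it cannot tell B cell content from the group.

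TCR beta RNA was lower in the Bach2-cKO libraries for most of the Trb genes tested. Of the 38 Trb genes that could be tested (at least 1 FPKM in at least 3 libraries), 27 fell and 0 rose (limma on the log2 of FPKM + 1, with a threshold of 0.05 on p-values adjusted by Benjamini-Hochberg over all 13766 genes tested). In that comparison 8.31% of all genes tested were called lower and 7.02% higher. All 38 had a log2 fold change below 0, as had 53.1% of all genes tested, and at an unadjusted p under 0.05 the counts were 32 lower and 0 higher. The median log2 fold change was -0.645 for the 38 and -0.017 for all genes. In 30 of the 38 every Bach2-cKO library lay below every WT library, against 20.1% of all genes tested. V, D, J and C rows can be parts of the same joined RNA, read in the same 6 libraries. The counts are therefore not of independent results. All 38 had at least 1 FPKM in all 6 libraries, so none was admitted through 1 group. Of the other 15 members, 6 (Trbv7, Trbv8, Trbv9, Trbv11, Trbv27 and Trbv28, all pseudogenes) were at 0 in every library, where 3 reads would be worth 0.170 to 0.417 FPKM, and 9 stayed at or under 1.78 FPKM.

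**Figure D1:**
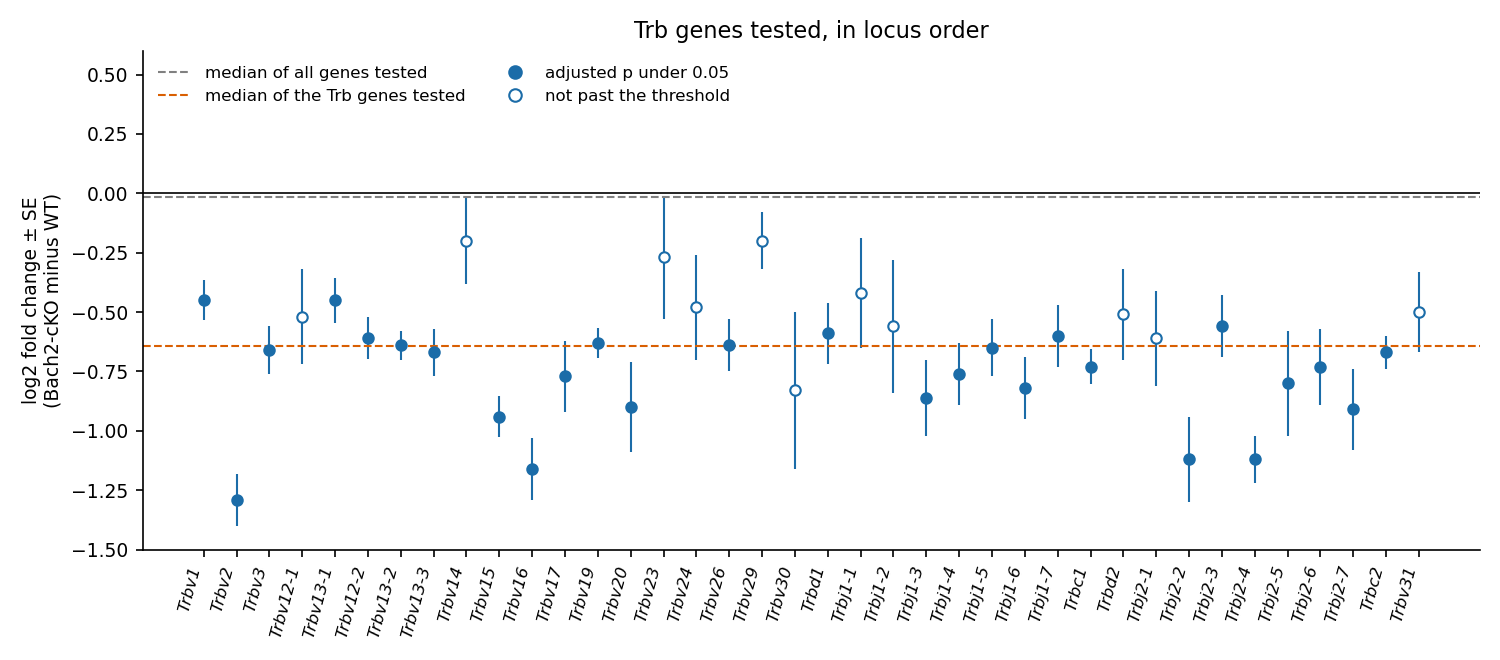
Log2 fold change of FPKM + 1 (Bach2-cKO minus WT, points, with bars of 1 SE) for the 38 Trb genes tested, in order along the locus; filled points have a limma adjusted p under 0.05. All points lie below 0, from -1.29 (Trbv2) to -0.20 (Trbv14 and Trbv29), with a median of -0.645 against -0.017 for all genes.

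Some limits bear on that count. When the B cell marker score of each library was added to the model, a score that separates the groups completely (6.898 to 7.340 in WT, 7.499 to 7.825 in Bach2-cKO), 1 of the 38 was called lower (Trbj2-4, limma adjusted p = 0.0436) and the median was -0.393, while 0.196% of all genes tested were called lower. Without the filter on low values 16 of 47 members were called lower, against 2.39% of the 28530 genes then tested. Leaving out 1 library at a time gave 20 (without WT replicate 1, against 3.80% of all genes) to 28 (without Bach2-cKO replicate 3, against 10.2%), and limma-voom on recovered reads gave 23, against 8.66%.

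The constant genes are in nearly every complete beta transcript and carry most of the reads. Trbc1 stood at 395, 401 and 423 FPKM in WT replicates 1 to 3 and at 259, 223 and 254 FPKM in Bach2-cKO replicates 1 to 3. The groups did not overlap, and the Bach2-cKO mean was 60.4% of the WT mean (406 ± 14.8 and 245 ± 19.1 FPKM, SD, n = 3 each). On the log2 scale Trbc1 fell by 0.73 (SE 0.073, limma adjusted p = 0.00116). Trbc2 stood at 563, 602 and 623 FPKM in WT and at 375, 353 and 396 FPKM in Bach2-cKO. Again no library of one group reached the other, and it fell by 0.67 on that scale (SE 0.071, limma adjusted p = 0.00137). With the B cell score in the model they were -0.58 and -0.63 and neither passed (limma adjusted p = 0.150 for both).

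Trbc2 was the higher of the pair in all 6 libraries, per length. Trbc1 held 41.2%, 40.0% and 40.4% of the Trbc sum in WT and 40.8%, 38.8% and 39.0% in Bach2-cKO. These shares overlapped between the groups.

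The partner chains of the receptor differed by smaller amounts. Trac, the constant gene of the alpha chain, was at 491, 490 and 533 FPKM in WT and 415, 397 and 470 in Bach2-cKO, a difference that did not pass (-0.24, SE 0.080, limma adjusted p = 0.0849). Cd3d (-0.37, adjusted p = 0.0292) and Cd3g (-0.28, adjusted p = 0.0346), signalling chains of the complex, fell, while Cd3e (-0.18, adjusted p = 0.221) did not pass in the same limma fit. The ratio of Trbc1 to Trac was 0.803, 0.818 and 0.794 in WT and 0.623, 0.562 and 0.540 in Bach2-cKO, so relative to alpha chain RNA, too, every Bach2-cKO library lay below every WT library. The ratio of Trbc2 to Trac was 1.15, 1.23 and 1.17 against 0.904, 0.887 and 0.843. For both ratios the exact two-sided permutation test gave p = 0.10, the smallest that 3 against 3 allows. When all genes were scaled to the CD3 genes of each library, Trbc1 (-0.45, limma adjusted p = 0.00854) and Trbc2 (-0.39, limma adjusted p = 0.0138) still passed, and 21 of the 38 members were called lower, against 3.35% of all genes.

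**Figure D2:**
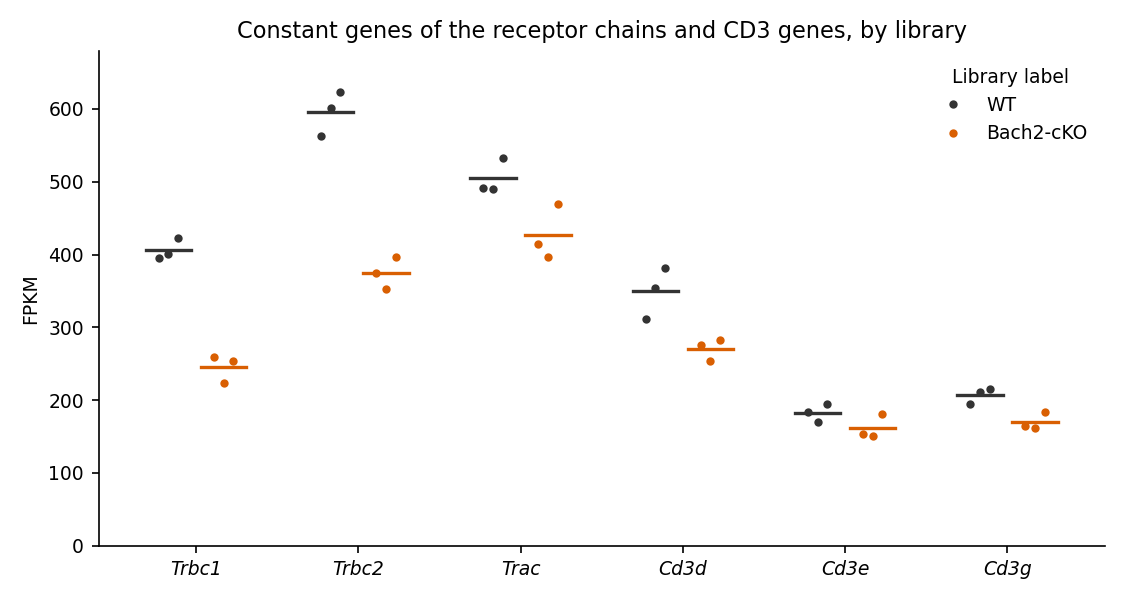
FPKM of Trbc1, Trbc2, Trac, Cd3d, Cd3e and Cd3g in each library (points) with group means (lines), 3 WT and 3 Bach2-cKO libraries. The groups are apart for Trbc1, Trbc2, Trac, Cd3d and Cd3g and overlap for Cd3e.

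The segments of the alpha locus give a second measure of the partner chain. Of 66 Trav rows tested 4 were called lower and 0 higher (12 and 2 at an unadjusted p under 0.05), with a median log2 fold change of -0.226. Of 47 Traj rows tested 2 were called lower and 0 higher (7 and 0 unadjusted), with a median of -0.209. Both are smaller shares than the 8.31% of all genes tested that were called lower. Below 0, however, were 47 of the 66 Trav and 32 of the 47 Traj rows, against 53.1% of all genes tested. The Trav sum is spread over 128 rows, so a Trav row is lower on average than a Trbv row. The pseudocount understates changes of low genes. The summed Trav FPKM was 342, 320 and 360 in WT and 324, 244 and 306 in Bach2-cKO. These sums overlap, and the difference between the 2 loci in the number of calls was not tested.

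Among V segments, RNA fell across most of the segments in use. The summed FPKM of the 35 Trbv rows was 737, 731 and 774 in WT and 482, 429 and 475 in Bach2-cKO. The groups were apart, with means of 747 ± 23.8 and 462 ± 28.9 (SD, n = 3 each), and the Bach2-cKO mean was 61.8% of WT, close to the 61.9% of the Trbc sum. The V rows held 8400 to 12729 reads in WT and 5127 to 5377 in Bach2-cKO. As a ratio, the Trbv sum was 0.769, 0.729 and 0.741 times the Trbc sum in WT and 0.761, 0.744 and 0.730 times in Bach2-cKO, which overlap: V and C RNA were lower by about the same factor.

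Of the 20 Trbv rows tested, 13 of 19 V genes were called lower, against 8.31% of all genes tested. The 1 pseudogene, Trbv24, did not pass (-0.48, limma adjusted p = 0.195). The largest fall was that of Trbv2, at 30.8, 28.8 and 31.0 FPKM in WT and 9.99, 13.6 and 12 in Bach2-cKO. Its groups lay far apart, and it fell by 1.29 on the log2 scale (SE 0.11, limma adjusted p = 0.000610). Trbv16 stood at 61.9, 75.6 and 55.8 FPKM in WT and 32.6, 24.6 and 27.4 in Bach2-cKO. Its fall was of similar size (-1.16, SE 0.13, limma adjusted p = 0.00192), again without overlap. Trbv15 (-0.94), Trbv20 (-0.90) and Trbv17 (-0.77) followed, with limma adjusted p-values of 0.000863, 0.0197 and 0.0125. Trbv20 lost its call without WT replicate 2 or 3 or Bach2-cKO replicate 1 or 2 (limma adjusted p from 0.0588 to 0.0701). Without the filter on low values Trbv20 and Trbv17 both lost it (limma adjusted p = 0.0821 and 0.0526).

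A middle group fell by amounts near the median of the locus. Trbv13-2, the leading segment, was at 84.8, 79.3 and 87.8 FPKM in WT and 54.9, 52.1 and 53.6 in Bach2-cKO (-0.64, SE 0.061, limma adjusted p = 0.000915). Its replicates were tight and its groups apart. Trbv13-3 (-0.67, adjusted p = 0.00488), Trbv3 (-0.66, 0.00536), Trbv26 (-0.64, 0.00840), Trbv19 (-0.63, 0.0010) and Trbv12-2 (-0.61, 0.00449) changed by nearly as much in the same limma fit. Trbv1 (-0.45, adjusted p = 0.0119) and Trbv13-1 (-0.45, adjusted p = 0.0193) fell least of those called, and these 2 lost the call when scaled to the CD3 genes (limma adjusted p = 0.220 and 0.199). Trbv13-1 also lost it without WT replicate 1 or 3 (limma adjusted p = 0.0760 and 0.0580) and without the filter on low values (0.0597).

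The other 6 V genes did not pass. Trbv29 was at 24.5, 18.3 and 23.1 FPKM in WT and 21, 17.5 and 18.3 in Bach2-cKO, with overlap and no call (-0.20, SE 0.12, limma adjusted p = 0.310). Trbv14 was at 19.6, 12.9 and 16.7 FPKM and 17.5, 13.0 and 12 FPKM, also with overlap (-0.20, SE 0.18, limma adjusted p = 0.50). Scaled to the CD3 genes both had a log2 fold change of 0.06, so their direction depends on the scaling. Trbv31, which lies beyond Trbc2 and is joined by inversion, was at 45.9, 36.4 and 47.5 FPKM in WT and 36.1, 23.1 and 32.7 in Bach2-cKO. Its groups did not overlap but were close (36.4 against 36.1), and it did not pass (-0.50, limma adjusted p = 0.0914). Trbv12-1 (-0.52), Trbv23 (-0.27) and Trbv30 (-0.83) had limma adjusted p-values of 0.129, 0.537 and 0.132. Trbv30 rested on 12 to 86 reads a library.

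Over the 20 Trbv rows tested, Spearman's rho of the log2 fold change with position was 0.09, and with the mean WT share it was -0.34, both as descriptions, since all rows come from the same 6 libraries. Trbv4 and Trbv5, annotated as V genes, were at 0 to 0.348 and 0.0978 to 1.78 FPKM. Both share most of their exon bases (75.1% and 79.3%) with the long noncoding RNA 5830405F06Rik on the same strand. That RNA was itself at 0.0722 to 0.351 FPKM. Reads in the shared bases cannot be told apart by position, and whether the counting left them out was not tested. The low values of Trbv4 and Trbv5 therefore do not show that these segments were little used. The 7 V pseudogenes above 0 held 0.322% to 0.619% of the V sum in each library.

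**Figure D3:**
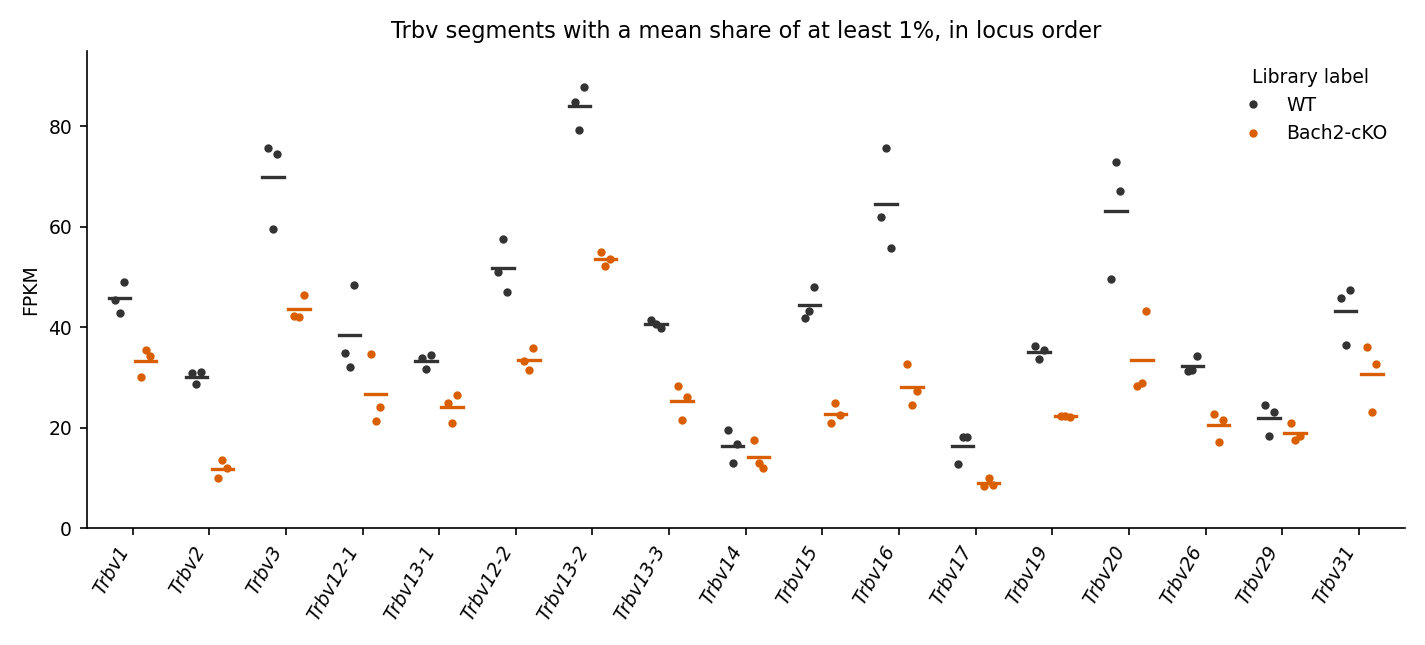
FPKM of the 17 Trbv segments with a mean share of at least 1%, in order along the locus, in each library (points) with group means (lines). Bach2-cKO points lie below WT for most segments, as for Trbv2 and Trbv16, while Trbv12-1, Trbv14 and Trbv29 overlap.

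The share of each segment in the V sum describes the mix of V RNA as counted, apart from its level. If reads of Trbv4 and Trbv5 were left out in counting, the shares below and all values computed from them miss that part. Of the 35 rows, 29 were above 0 in some library, 17 had a mean share of at least 1% and together held 97.9% of the sum, and 13 had at least 4% and held 86.4%. Trbv13-2 led in all 6 libraries, with 11.5%, 10.9% and 11.3% in WT and 11.4%, 12.1% and 11.3% in Bach2-cKO. Its groups overlapped. Trbv3 came next on average, with 8.16% to 10.3% in WT and 8.76% to 9.83% in Bach2-cKO, although Trbv16 was the second segment in WT replicate 2 (10.4%). The mean shares over the 6 libraries of the other segments above 4%, an order that holds in neither group alone, were 7.85% for Trbv20, 7.37% for Trbv16, 7.11% for Trbv12-2, 6.68% for Trbv1, 6.19% for Trbv31, 5.46% for both Trbv13-3 and Trbv15, 5.43% for Trbv12-1, 4.84% for Trbv13-1, 4.77% for Trbv19 and 4.38% for Trbv26. In WT Trbv16 (mean 8.66%) stood above Trbv20 (8.45%), and in Bach2-cKO Trbv12-2 (7.26%) and Trbv20 (7.25%) stood above Trbv16 (6.09%). The order of the segments after Trbv3 changed from library to library. Just under the limit of 4% stood Trbv29 with 3.52%.

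The shares of 13 of the 17 segments overlapped between the groups, and those of 4 did not, against 35.6% of all genes tested whose FPKM did not overlap in either direction. Trbv16 held 8.41%, 10.4% and 7.20% in WT and 6.75%, 5.74% and 5.77% in Bach2-cKO, a difference of means of -2.57 percentage points. Trbv2 held 4.19%, 3.95% and 4.0% and then 2.07%, 3.17% and 2.53%, a difference of -1.46. The shares of these 2 were lower. Trbv29 held 3.32%, 2.51% and 2.98% in WT and 4.35%, 4.09% and 3.84% in Bach2-cKO, a difference of 1.16 points. Trbv13-1 held 4.60%, 4.33% and 4.44% and then 5.18%, 4.90% and 5.61%, a difference of 0.77 points. The shares of these 2 were higher although neither had more RNA: Trbv13-1 fell by 0.45 on the log2 scale and Trbv29 did not pass. Shares sum to 100% and so move together, and no test was made on them.

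**Figure D4:**
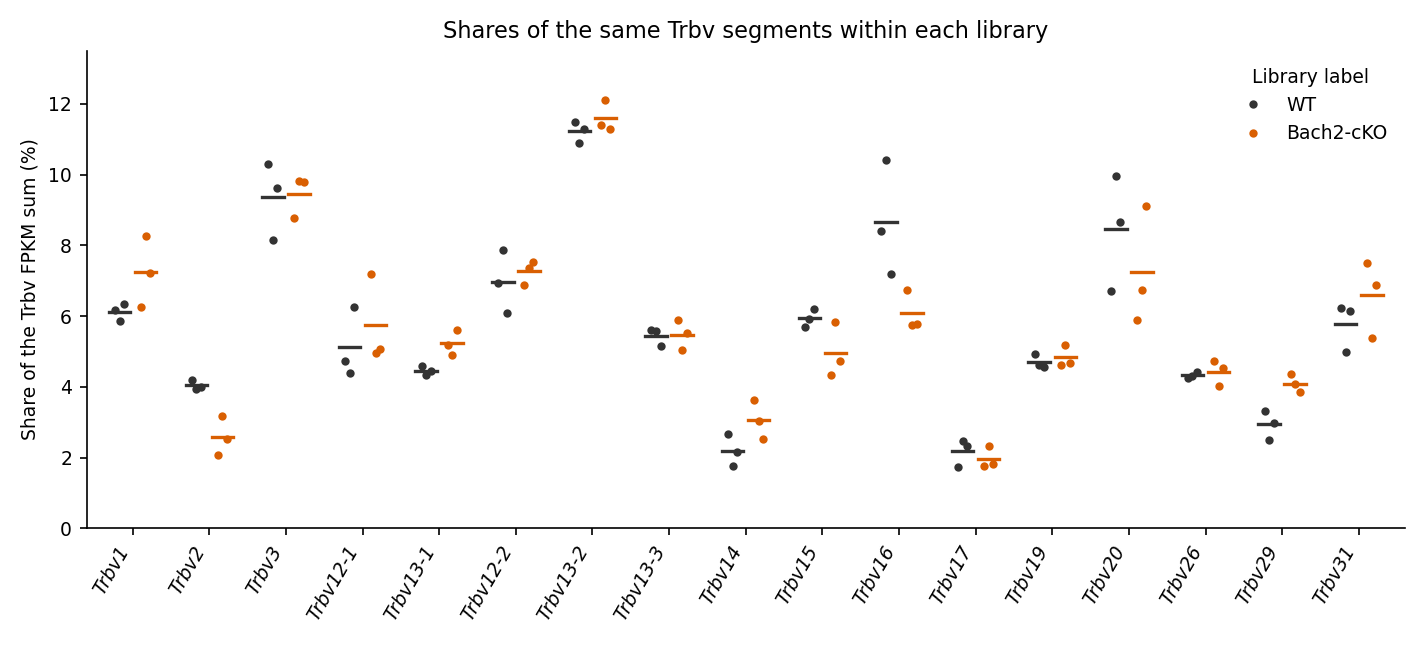
Share of the Trbv FPKM sum (%) held by each of the same 17 segments in each library (points) with group means (lines). Most segments overlap between WT and Bach2-cKO; Trbv2 and Trbv16 lie lower and Trbv13-1 and Trbv29 higher in Bach2-cKO.

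The evenness of the mix differed between the groups by less than between libraries of 1 group. Shannon entropy of the shares divided by its maximum over 29 segments, which is 1 when all segments are equal, was 0.837, 0.832 and 0.840 in WT and 0.843, 0.838 and 0.830 in Bach2-cKO. The difference of means, 0.0010, was smaller than the SD within either group (0.00388 and 0.00643). Expressed as an effective number of equally used segments this was 16.7, 16.5 and 16.9 against 17.1, 16.8 and 16.4. The 3 segments with the highest mean share over the 6 libraries (Trbv13-2, Trbv3 and Trbv20), which are not the top 3 of every library, held 28.5%, 29.0% and 29.6% of the sum in WT and 26.0%, 28.7% and 30.2% in Bach2-cKO. The leading segment alone held 10.9% to 12.1% in the 6 libraries. The part of the V sum that would have to change segments to turn one library into another (summed absolute difference of shares divided by 2) was 5.43% to 7.54% within WT, 6.29% to 9.43% within Bach2-cKO and 6.42% to 13.1% between groups, ranges that overlap.

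The D and J segments are shorter than a sequenced fragment, so their FPKM is not comparable in height with that of V and C rows, and how a read that crosses V, D, J and C exons was assigned was not given in the sources used here. Trbd1, which can join J segments of both clusters, was at 520, 488 and 472 FPKM in WT and 319, 271 and 402 in Bach2-cKO, on 104 to 274 reads a library. The groups were apart and Trbd1 fell (-0.59, SE 0.13, limma adjusted p = 0.0245). It did not pass when scaled to the CD3 genes (-0.32, limma adjusted p = 0.0803), in limma-voom on recovered reads (-0.59, adjusted p = 0.0616) or without a filter (adjusted p = 0.0944). Nor did it pass in limma without WT replicate 1, 2 or 3 or Bach2-cKO replicate 1 or 2 (adjusted p from 0.0517 to 0.0901). Trbd2, which lies behind cluster 1 and can join only cluster 2, was at 57, 41.6 and 69.6 FPKM and then 41.3, 31.3 and 43.7 on 14 to 35 reads. Its groups overlapped and it did not pass (-0.51, SE 0.19, limma adjusted p = 0.124).

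RNA of both J clusters was lower in Bach2-cKO. The summed FPKM of cluster 1 was 773, 626 and 792 in WT and 476, 384 and 468 in Bach2-cKO, and of cluster 2 it was 730, 639 and 722 against 441, 317 and 429. Both were apart between the groups, at 60.6% and 56.8% of the WT mean. Cluster 1 held 51.5%, 49.5% and 52.3% of the J sum in WT and 51.9%, 54.7% and 52.2% in Bach2-cKO, which overlap. The cluster 1 sum was 1.56 to 1.96 times Trbc1 in WT and 1.72 to 1.84 times in Bach2-cKO, and the cluster 2 sum was 1.06 to 1.29 and 0.900 to 1.18 times Trbc2, again overlapping.

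Of the 14 J segments 11 were called lower, 5 of 7 in cluster 1 and 6 of 7 in cluster 2, against 8.31% of all genes tested. Trbj2-4 was at 31.6, 41.0 and 34.6 FPKM in WT and 15.5, 16.0 and 16.2 in Bach2-cKO. With groups far apart, it fell by 1.12 (SE 0.099, limma adjusted p = 0.000722). It rested on few reads, 47 to 68 in WT and 21 to 25 in Bach2-cKO. Trbj2-2 was at 108, 69.8 and 92.0 FPKM and then 36.8, 35.6 and 50.1, which also do not overlap (-1.12, SE 0.18, limma adjusted p = 0.00697). Trbj2-7, the highest J segment in WT, was at 234, 232 and 258 FPKM and then 161, 96.5 and 135 (-0.91, limma adjusted p = 0.0112). Trbj1-3 (-0.86), Trbj1-6 (-0.82), Trbj2-5 (-0.80), Trbj1-4 (-0.76), Trbj2-6 (-0.73), Trbj1-5 (-0.65), Trbj1-7 (-0.60) and Trbj2-3 (-0.56) also fell, with limma adjusted p-values from 0.00683 to 0.0493. Of these, Trbj1-7, Trbj2-3 and Trbj2-5 lost the call when scaled to the CD3 genes and in limma-voom on recovered reads (adjusted p from 0.107 to 0.139). Without the filter on low values, Trbj2-7 (limma adjusted p = 0.0562), Trbj1-3 (0.0580), Trbj1-5 (0.0509) and Trbj2-6 (0.0832) lost the call. So did Trbj1-7 (0.0758), Trbj2-3 (0.101) and Trbj2-5 (0.153) in that limma fit. Some calls of J segments also ended in limma when 1 library was left out. Trbj1-3 lost its call without WT replicate 1 (adjusted p = 0.0541), Trbj1-7 without WT replicate 1 or 2 (0.0638 for both) and Trbj2-6 without WT replicate 1, 2 or 3 (0.0507 to 0.0805). Trbj2-3 lost it without WT replicate 1 or 3 or Bach2-cKO replicate 1 or 2 (limma adjusted p from 0.0817 to 0.105). Trbj2-5 lost it on leaving out any 1 library other than Bach2-cKO replicate 1 (limma adjusted p from 0.0548 to 0.158), with median-ratio scaling (0.0556), with a pseudocount of 0.1 (0.0522) and with a filter on the mean (0.0505). Trbj1-1 (-0.42), Trbj1-2 (-0.56) and Trbj2-1 (-0.61) did not pass (limma adjusted p = 0.269, 0.221 and 0.0816).

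Levels within each cluster spanned a wide range. In WT the means ran from 19.5 FPKM (Trbj1-1) to 200 ± 18.4 FPKM (Trbj1-5) in cluster 1 and from 35.3 (Trbj2-5) to 241 ± 14.6 FPKM (Trbj2-7) in cluster 2 (SD, n = 3). Trbj2-6, the segment annotated as a pseudogene and without the capital letters above, was at 170, 150 and 157 FPKM in WT and 114, 73.0 and 105 in Bach2-cKO. It was thus the fourth highest J row in WT and fell with the others (-0.73, SE 0.16, limma adjusted p = 0.0204). Its 112 to 359 reads a library lie on 48 bases next to Trbj2-7, and whether they come from joined or unspliced RNA was not tested.

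**Figure D5:**
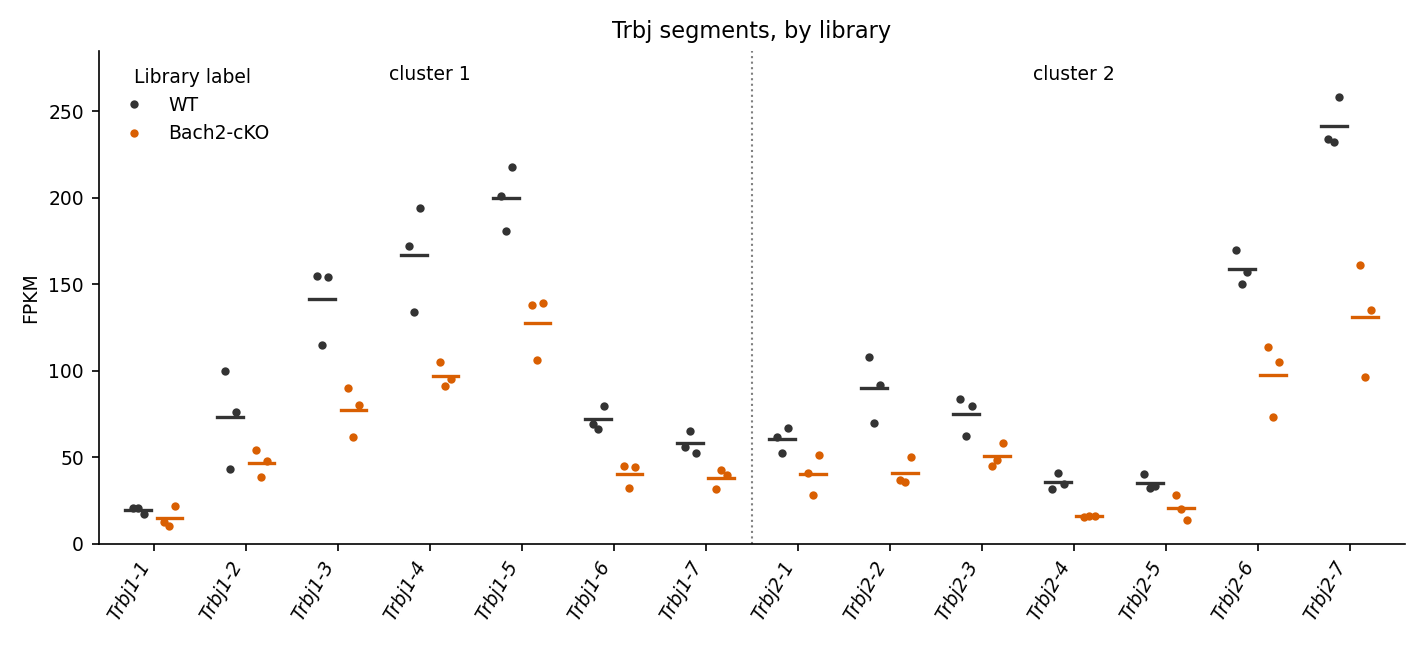
FPKM of the 14 Trbj segments in each library (points) with group means (lines), cluster 1 on the left and cluster 2 on the right. Trbj1-5 and Trbj2-7 are the highest of their clusters in WT, at means of 200 and 241 FPKM, and the Bach2-cKO means lie below WT throughout.

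Genes that work with the receptor moved in both directions. Of 46 genes of the receptor complex and its proximal signalling, 15 fell and 6 rose, with a median log2 fold change of -0.18, where 8.31% of all genes tested fell and 7.02% rose. Scaled to the CD3 genes, which moves the median of all genes from -0.017 to 0.234, the counts were 4 lower and 11 higher. Under this scaling 3.35% of all genes were called lower, and the share called higher was not computed. Since the scaling moves the median of all genes upward, these counts do not show a turn within the list. Cd3d, Cd3e and Cd3g, which set the scale, are also in the list. Without Bach2-cKO replicate 2 the counts were 6 and 3, without WT replicate 1 they were 7 and 3, without Bach2-cKO replicate 1 the lower count was 8, without WT replicate 2 the higher count was 3, and with the B cell score both were 0 in limma (5 lower and 6 higher at an unadjusted p under 0.05). Named after their values were seen, Prkcq, the protein kinase C theta that acts behind the receptor, fell (66.4 to 68.1 FPKM in WT and 33.2 to 37.0 in Bach2-cKO, -0.93, limma adjusted p = 0.000270), and Lck, the kinase that phosphorylates the CD3 chains, fell by 0.35 (adjusted p = 0.00904). Among those that rose were Themis, an adaptor of receptor signalling (1.11, limma adjusted p = 0.00146), Malt1, a protease of the pathway to NF-kappa B (0.81, adjusted p = 0.000968), and Cd8a and Cd8b1. Cd247, the CD3 zeta chain, had a log2 fold change of 0.19 and did not pass (limma adjusted p = 0.0787).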

How the data were processed

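Poly(A) RNA of 6 libraries was sequenced. The authors deposited FPKM per gene and library, and the submitters' processing notes name HISAT2 2.0.5, featureCounts 1.5.0-p3 and mm9; annotation, strand use and the treatment of reads with several hits were not given in the sources used here. Positions of all 53 members equal GENCODE M21 on GRCm38 and are given so. From the FPKM steps whole reads were recovered at a tolerance of 0.001 reads for 28530 of 28530 genes above 0, and 99.92% to 99.93% of each total. The test covered genes that reached 1 FPKM in 3 or more libraries and used the log2 of FPKM + 1 (this pseudocount understates changes of low genes) with limma 3.58.1 (intensity trend, no covariate, two-sided, Benjamini-Hochberg adjustment over all genes, threshold 0.05) in R 4.3.3. Sums, shares and evenness were computed per library without a test. Alternatives were 2 scalings, limma-voom on recovered reads, 2 filters, a pseudocount of 0.1, functional V genes only, leaving out segments, a B cell score as covariate, the replicate number as a block and leaving out each library. The B cell score is the mean log2(FPKM + 1) of 7 marker genes.

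The members and gene lists were chosen with earlier results of these data known. Named were all Trbc, Trbd and Trbj rows, Trbv rows with a mean share of at least 4%, rows past the threshold, Trbv rows of at least 1% whose shares did not overlap, and the row just under 4%. Other rows were named after their values were seen. The fit was also run on simulated reads for 13589 genes, all given the same relative spread. It called 7 of 50 genes at a fold of 1.25, 32 of 50 at 1.5, 46 of 50 at 2 and 49 of 50 at 4, besides 17 unchanged genes. Real genes differ in their spread, so these rates need not hold for them. Same-numbered libraries did not deviate together, so the numbers were not taken as pairs. The gamma constant genes were matched as the table spells them. Sequences come from GENCODE M21 transcripts; identities are from pairwise alignment with Biopython 1.88. Figures were drawn with Matplotlib 3.10.9.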

Additional observations from a re-analysis of the deposited data

How the results depend on the processing

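All 38 members tested kept a log2 fold change below 0 under every alternative except scaling to the CD3 genes (36) and the B cell score as covariate (30). The replicate block and the filters leave each fold change as in the main fit by construction, so they do not check its direction. Scaled to the CD3 genes, which moves the median of all genes from -0.017 to 0.234, the members' median was -0.374 and the log2 ratio of the Trbv sums -0.42 (against -0.69), 4 genes of the receptor and signalling list were lower and 11 higher, and Trbv14 and Trbv29 turned to 0.06 each. With the B cell score the members' median was -0.393, 1 member was called, Trbc1 was at -0.58 and Trbc2 at -0.63, the list had 0 lower and 0 higher, and Trbv14 (0.38), Trbv29 (0.24), Trbv31 (0.17) and Trbv12-1 (0.08) turned positive; the causes were not tested. Without a filter, with 28530 genes tested, 16 members were called, and 8 list genes were lower and 2 higher. Leaving out 1 library at a time gave 20 to 28 members called, medians of -0.707 to -0.589, Trbc1 at -0.77 to -0.66, Trbc2 at -0.71 to -0.63, Trbv sums at -0.73 to -0.64, Trbj sums at -0.85 to -0.65, Trbd sums at -0.73 to -0.45, a distance between group mean V shares of 5.49% to 7.88%, an evenness difference of -0.0019 to 0.0045, and 6 to 18 list genes lower and 3 to 6 higher. With limma-voom on recovered reads 23 members were called, all among the 27. A planned quasi-likelihood count test was not run, and limma-voom was the count-based test made on the recovered reads. The replicate block gave 30 members called, against 4.77% of all genes (Trbc1 -0.73, Trbc2 -0.67); correlations of same-numbered libraries were -0.053, 0.006 and -0.215. The 4 segments with shares apart kept their direction in the alternatives run for shares. These were recovered reads (Trbv2 at -2.06 percentage points), functional V genes only, segments of at least 1 FPKM, no leading segment and leaving out each library. Leaving out a library could not turn the direction, since the segments were picked because no library of one group reached the other. The other alternatives use the same libraries and nearly the same rows, so none is independent support. Depth limits most the rows with few reads a library, among them Trbv4 (0 to 6), Trbv5 (1 to 21), Trbd2 (14 to 35), Trbj1-1 (16 to 43), Trbj2-5 (19 to 87), Trbj2-4 (21 to 68), Trbv23 (25 to 57) and Trbv30 (12 to 86); intervals were not given for them.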

Other observations

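The TCR beta locus also holds 28 rows of other genes, among them trypsinogen genes. In these libraries 19 of the 28 were at 0 throughout and the highest value was 1.53 FPKM (Prss2, at 0.278 to 1.53 FPKM).

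Genes of V(D)J recombination, which joins the segments in developing lymphocytes, were measurable in these sorted splenic cells. Rag1, a subunit of the recombinase, was at 39.6, 52.3 and 31.0 FPKM in WT and 26.8, 35.7 and 68.6 in Bach2-cKO, with overlap and no call (limma adjusted p = 0.985). Rag2 was at 2.01 to 3.97 and 1.5 to 4.43 FPKM, and Dntt, which adds bases at the joints, at 2.70 to 4.11 and 2.12 to 4.36 FPKM. Ptcra, which pairs with new beta chains in the thymus, was at 0 in 5 of 6 libraries and at 0.0178 FPKM in WT replicate 1.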
